A study of Mus musculus with 16 samples.

Results

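Poly(A)+ mRNA of the dorsal root ganglion (DRG) was compared between mice with spared nerve injury (SNI) and mice with sham surgery. The members were all genes with a mean of at least 32 reads over the 4 DRG mRNA libraries, which left 14494 of the 53465 genes of the table. A further 17695 genes had at least 1 read and fell under this minimum. The mice were female C57BL/6J, without any transgene or drug, operated at 8 weeks of age and sampled 30 days after surgery. In the SNI mice 2 sciatic branches, the common peroneal and the tibial, had been tied and cut on both sides, and the sural branch was left intact. Each library came from a pool of 10 mice, with 2 pools per group, so the values of single animals cannot be seen. The lumbar ganglia were taken whole. They therefore held cut neurons, neurons of the spared branch, glia, immune cells, vessels and connective tissue, and fewer cells of a type could not be told apart from less RNA per cell. Ribosome footprints of the same lysates, and mRNA of the spinal cord of the same study, served only as further readouts of the same genes.

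The DRG holds the cell bodies of the sensory neurons, whose axons run out to skin and muscle and inward to the spinal cord. Each cell body is wrapped by satellite glia, and each axon by Schwann cells. After a cut the neurons switch on regeneration genes such as those of the transcription factors ATF3 and SOX11, macrophages gather in the ganglion, and many channel and transmitter genes of the resting neuron are turned down. These known injury genes were kept as a reference list. Most results are about the families around them.

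Reads counted in genes ran from 18176471 to 28553113 per library, and the 10 most abundant genes took 4.74% to 5.16% of them. Levels are given as CPM, the reads of a gene scaled to the size of its library and to TMM factors, which lay between 0.988 and 1.01. The 2 pools of a group differed by little more than sampling noise. The mean chi-square per gene was 1.06 between the sham pools and 1.07 between the SNI pools, where counting error alone gives about 1, and it was 10.4 to 11.98 between a sham and an SNI pool. The sums, 13428.2 over 12711 genes for sham and 14268.5 over 13357 genes for SNI, exceeded what counting error gives by a little. Each pool was counted as its own sample because the labels number it as one. Separate pools of animals and repeat libraries of 1 pool cannot be told apart from so small an excess. The p-values measure the spread between these libraries only, which may be technical, and the estimated common biological coefficient of variation was 0.00988.

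Of the 14494 genes, 2308 (15.9%) were higher and 2467 (17%) were lower after SNI (edgeR quasi-likelihood test, Benjamini-Hochberg adjusted p under 0.05, called hereafter). Most of these changes were small. The counts of list members called below are to be read beside the 15.9% and the 17%. When a change had to exceed 1.5-fold, 81 genes (0.559%) were higher and 24 (0.166%) were lower. The lower count came to 11 without the first sham pool and 15 without the second. With library sizes alone as the scaling, the split of all calls turned to 3072 higher and 1781 lower, while the median log2 fold change of all tested genes moved only from 0.00028 to 0.0334. In a fit with the coefficient of variation fixed at 0.1, a far wider spread than these pools showed, 186 genes were higher and 81 lower. The 4676 genes with both SNI pools above both sham pools made up 32.3% of those tested, and the 4668 with both below made up 32.2%.

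The labelled tissue matched its markers. All 18 sensory neuron markers and all 18 Schwann cell markers passed the minimum, with summed levels of 9192 to 9878 CPM and 5827 to 6186 CPM in the 4 libraries. The neuron list was lower in its sum after SNI (9864 and 9878 CPM in the sham pools, 9203 and 9192 CPM in the SNI pools), and 4 of its members rose and 11 fell. Nefh, the heavy neurofilament chain of large neurons, fell from 1948 and 1956 CPM after sham surgery to 1550.4 and 1555 CPM after SNI. Mrgprd, a receptor of non-peptidergic nociceptors, fell by 0.30 ± 0.03 on the log2 scale, and Calca, the precursor of CGRP, by 0.15 ± 0.005, whereas Prph, the peripherin of small neurons, rose by 0.07 ± 0.0037. Of these 4 calls, none was kept with the coefficient of 0.1.

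Markers of other tissues also differed between the groups. The summed level of the 23 listed skeletal muscle markers was 126.9 to 128.3 CPM in the sham pools and 272 CPM in both SNI pools. Of the 20 tested, 18 were higher. Ckm, the muscle creatine kinase, was at 4.92 and 6.07 CPM in the sham pools and 19.6 and 18.9 CPM in the SNI pools. In the other direction went markers of the central nervous system. Of 8 tested oligodendrocyte markers 5 fell and 2 rose. The summed level of all 12 listed was 110 to 116 CPM after sham and 92.5 to 96.6 CPM after SNI. The myelin gene Mobp was at 21.1 and 20.8 CPM in the sham pools and 3.36 and 2.57 CPM in the SNI pools, and its level in sham cord was 1494 CPM. Of 10 astrocyte markers 6 fell and 1 rose (358 to 360 CPM, then 269 to 274 CPM), and of 8 tested spinal cord neuron markers 4 fell (32.4 to 34.3 CPM, then 22.1 to 22.7 CPM), among them the glycine transporter Slc6a5 at 8.78 and 8.40 CPM in the sham pools and 3.67 and 3.77 CPM in the SNI pools. The sums in this paragraph cover all listed markers, also those under the minimum of reads. The pools did not overlap for these sums. No marker of these lists was without a read, and 4 of 12 oligodendrocyte and 6 of 14 cord neuron markers lay under the minimum. These lists moved with several families below, and their part in those results was not tested.

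**Figure D1:**
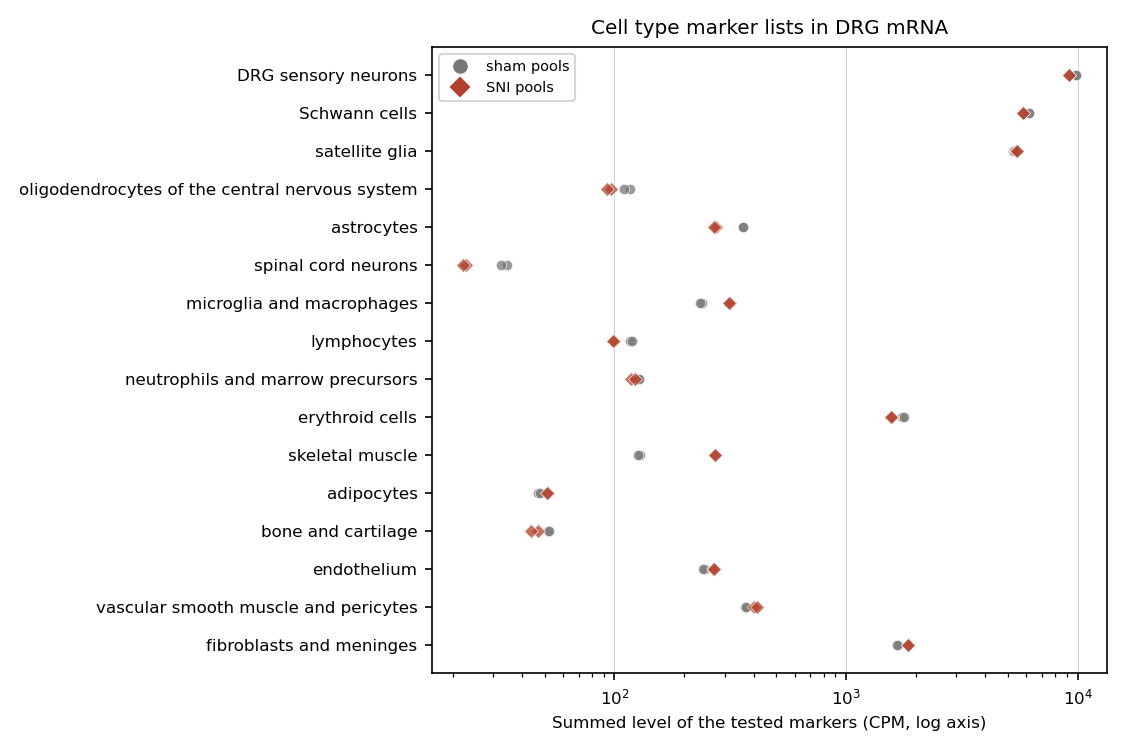
Summed mRNA level of the members of 16 cell type marker lists (CPM, log axis), with 1 point per pool, circles for the 2 sham and diamonds for the 2 SNI pools. The sums include listed members under the minimum of reads, although the axis title names tested markers. Skeletal muscle stood at 126.9 to 128.3 CPM in the sham and at 272 CPM in the SNI pools, and microglia and macrophages at 233 to 240 CPM and at 311 to 316 CPM, while the astrocyte and cord neuron lists were lower after SNI.

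Outside the known injury genes, the largest rises included 4 genes with few reads in sham ganglia. These genes passed the minimum of reads through their SNI reads, so a low sham level and a large fold go together in them by construction. The same holds for other rises named below with a mean under 1 CPM in the sham pools, such as Fgf3, and for Krt19 a little above that level. Anxa10, an annexin, had 2 reads in the first sham pool, no read in the second, and 78 and 69 reads in the SNI pools. The ratio of the summed reads was 54.2, with a 95% exact interval of 14.7 to 452 that covers counting error only. Kcnk16, a 2-pore-domain potassium channel known from pancreatic islets, was at 0.451 and 0.668 CPM in the sham pools and 5.47 and 5.06 CPM in the SNI pools. That was a 9.46-fold rise (log2 fold change 3.24 ± 0.24 SE, adjusted p = 1.51e-13). Slc6a4, the serotonin transporter, went from 0.752 and 0.946 CPM after sham surgery to 5.68 and 5.99 CPM after SNI, which is 6.85-fold (adjusted p = 3.52e-13). Cyp26a1, the enzyme that breaks down retinoic acid, was at 0.301 and 0.390 CPM in the sham pools and 2.32 and 2.49 CPM in the SNI pools, or 6.88-fold higher. Genes whose pools overlapped were not named among the largest changes, so the separation of the pools is not a result here. On GRCm38 (GENCODE M21) Anxa10 lies at chr8:62057042-62123150 and Kcnk16 at chr14:20261376-20269199, both on the minus strand, with 12 and 6 exons.

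The other large rises were in genes of several kinds. Fst encodes follistatin, which binds and blocks activins. Its level was 6.72 and 8.13 CPM in the sham pools and 27.2 and 26.4 CPM in the SNI pools (3.64-fold, adjusted p = 1.89e-19). Adam8, a membrane metalloprotease, was at 11.1 and 10.7 CPM in the sham pools and 27.9 and 27.3 CPM in the SNI pools, and Acvr1c, an activin-family receptor, was at 0.502 and 1.11 CPM in the sham pools and 2.56 and 2.22 CPM in the SNI pools. Glis3, a zinc-finger transcription factor, rose from 2.31 and 1.28 CPM after sham surgery to 7.13 and 6.61 CPM after SNI. Star, which brings cholesterol into mitochondria for steroid synthesis, rose by 1.57 ± 0.18 on the log2 scale, Slfn9 of the Schlafen family by 1.71 ± 0.24, and the RAS effector Rin1 by 1.47 ± 0.25. Car1 and Car3, both carbonic anhydrases, were at 0.752 and 0.779 CPM (sham) against 4.05 and 4.48 CPM (SNI) and at 15.9 and 17 CPM (sham) against 46.3 and 45.4 CPM (SNI), and Igfn1, a muscle protein, was at 1.40 and 1.06 CPM (sham) against 7.13 and 7.41 CPM (SNI). Car1, Acvr1c, Rin1, Slfn9 and Igfn1 also passed the minimum of reads through their SNI reads. The limit given for the 4 genes above holds for them. Car3 and Igfn1 are abundant in muscle and moved with the muscle markers above. All 15 rises kept the call with DESeq2, with the coefficient of 0.1 and without each pool as far as they still passed the minimum of reads.

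Among protein-coding genes, 12 falls passed 1.5-fold and the other naming conditions, the largest by fold being those of Calb2, 1500009C09Rik and Htr2c. Calb2, the calcium buffer calretinin, dropped from 25.8 and 24.9 CPM after sham surgery to 7.44 and 6.79 CPM after SNI (log2 fold change -1.83 ± 0.08, adjusted p = 2.25e-19). Pvalb, the calcium buffer parvalbumin of proprioceptors, dropped from 186 and 184 CPM after sham surgery to 111 and 110.0 CPM after SNI (-0.74 ± 0.03). Kcnh7, a potassium channel of the ERG type, dropped from 202 and 209.8 CPM after sham surgery to 122 and 127.6 CPM after SNI (-0.73 ± 0.03). Each of the 12 kept the call with the coefficient of 0.1. Htr2c and 1500009C09Rik passed the minimum of reads through their sham reads. A low SNI level and a large fold therefore go together in them by construction. The same holds for the falls of Ighg3 and Gm13629 below. Neither Htr2c nor 1500009C09Rik passed the minimum once a pool was left out. Cacng2, the AMPA receptor partner stargazin, fell by 0.81 ± 0.06 on the log2 scale, the axonal adhesion protein gene Cntn4 by 0.93 ± 0.09, and Lpl, lipoprotein lipase, by 0.90 ± 0.09. Vstm2b, Lancl3 and Tmem196 fell by 1.09 ± 0.09, 1.06 ± 0.10 and 0.97 ± 0.11. Hoxb8, which sets position along the body axis, was at 41.6 and 41.3 CPM in the sham pools and 24 and 24.2 CPM in the SNI pools. The serotonin receptor gene Htr2c and 1500009C09Rik were low in the ganglion, at 2.36 and 2.84 CPM (sham) against 0.900 and 0.666 CPM (SNI) and 3.01 and 2.45 CPM (sham) against 0.796 and 0.843 CPM (SNI), and much higher in sham cord at 174 and 155 CPM. Calb2 (258 CPM) and Hoxb8 (505 CPM) were also higher in cord, on the cord libraries' own scaling, and moved with the cord markers. Kcnh7 (38.9 CPM), Pvalb (146 CPM) and Lpl (4.63 CPM) were lower in cord than in the sham ganglion. Kcnh7 shares 696 exonic bases with Gca on the other strand, which the unstranded reads cannot separate.

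**Figure D2:**
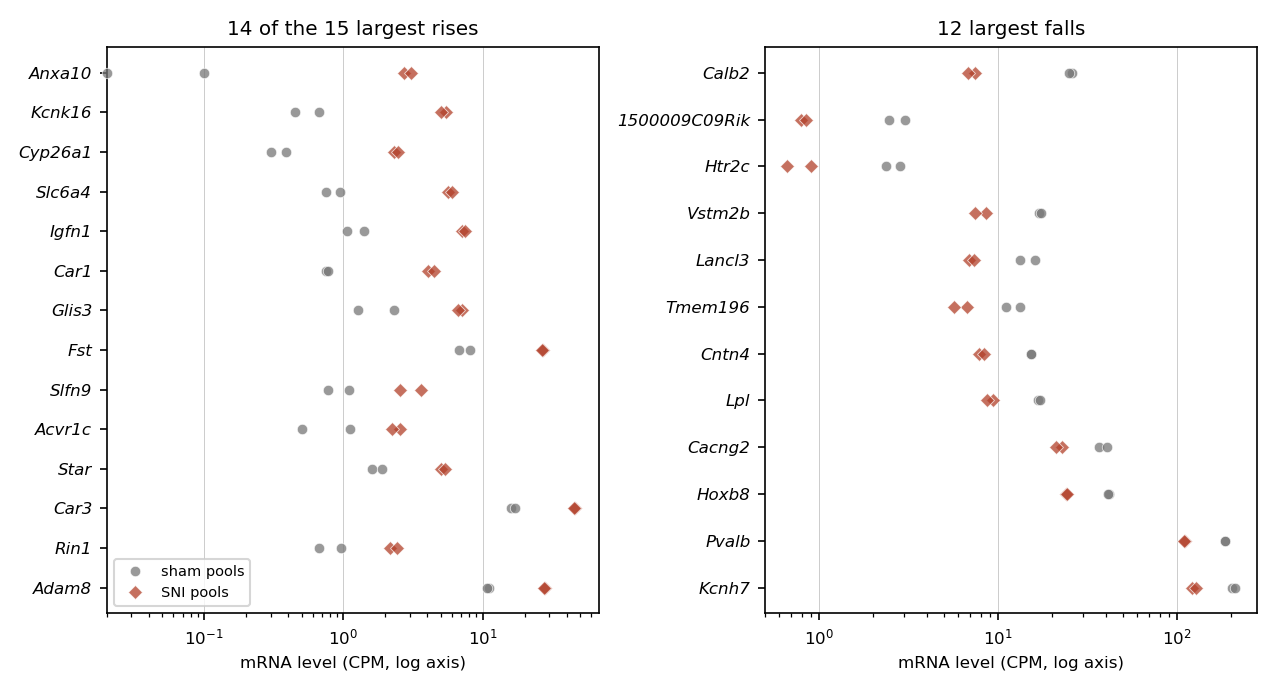
Level of 14 of the 15 largest rises and of the 12 largest falls outside the injury and tissue marker lists (CPM, log axis), with 1 point per pool, circles for sham and diamonds for SNI. Only genes whose pools do not overlap were plotted, 26 in all, and Anxa10 in the second sham pool, which had no read, is drawn at the left edge.

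The reference list of injury genes showed what a strong response looked like on this scale. Of its 38 tested members 32 rose and none fell (0 at an unadjusted p under 0.05 and 0 with DESeq2), with a median log2 fold change of 1.11 against 0.00028 over all genes. The list was drawn up from injury genes already known, some from these very samples, so its direction is not independent evidence. Sprr1a, a small proline-rich protein of growing axons, rose from 13 and 13.2 CPM after sham surgery to 245 and 253 CPM after SNI, and the peptide precursor Npy from 5.52 and 5.29 CPM after sham surgery to 87.5 and 88.2 CPM after SNI. Ucn, the CRF-like peptide urocortin, had 6 reads in the 2 sham pools and 166 in the SNI pools, a ratio of 20.4 with a 95% exact interval of 9.17 to 56.4. Fgf3, a secreted growth factor, rose from 0.451 and 0.334 CPM after sham surgery to 5.19 and 6.08 CPM after SNI.

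Among ion channel genes the voltage-gated sodium channels were mostly lower, while the potassium, calcium, TRP and chloride channel lists had calls in both directions. Among 14 tested voltage-gated sodium channel genes, which carry the action potential, 9 fell and 2 rose, against 17% and 15.9% of all genes. Scn1a, the channel of fast-conducting large neurons, fell from 137 and 143 CPM after sham surgery to 94.5 and 93.7 CPM after SNI (-0.57 ± 0.03, adjusted p = 6.86e-18), and Scn8a, found at nodes of Ranvier, fell by 0.32 ± 0.02. The beta subunit gene Scn3b, named after its values were seen, rose by 0.09 ± 0.03. With the coefficient of 0.1 Scn1a kept its call and the other sodium channel genes lost theirs.

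Potassium channel genes, which set the resting potential and end each spike, gave 29 falls and 8 rises among 74 tested. Of 13 alpha subunits of the Kv1 to Kv4 classes 9 fell and 1 rose, and their summed level went from 2273 and 2293 CPM to 1994 and 1998 CPM. Of 17 modifier, accessory and beta subunits 9 fell, and inward rectifiers, which hold the cell near rest, gave 5 falls and 1 rise among 11. Kcnd2, an A-type channel, fell from 3.76 and 4.73 CPM after sham surgery to 2.46 and 2.22 CPM after SNI, and Kcnh5, of the EAG type, from 8.13 and 6.90 CPM after sham surgery to 4.71 and 5.19 CPM after SNI. The 2-pore-domain class, which carries leak current, gave 4 rises and 2 falls among 11, with a median of 0.182, led by the Kcnk16 described above. The summed level of the class was 191 to 195 CPM in all 4 libraries, of which Kcnk16 made up little. In footprints 0 of 9 genes of the class were higher and 1 was lower. With DESeq2 the whole potassium channel list gave 18 falls and 2 rises, Kcnk16 among the rises. Kcnh5 lost its call with the coefficient of 0.1.

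Calcium channel genes were mixed, with 6 rises and 5 falls among 20. Cacna2d1, the subunit to which gabapentin binds, rose from 252 and 249.7 CPM after sham surgery to 353 and 347 CPM after SNI (0.48 ± 0.02, adjusted p = 2.00e-19). Cacng4, a relative of stargazin, fell by 0.49 ± 0.08, and the beta subunit Cacnb4 by 0.21 ± 0.03. TRP channels, which sense heat, cold and irritants, gave 3 rises and 3 falls among 15, shares (20% each) near those of all genes (15.9% and 17%), and with DESeq2 2 rises and 0 falls. The capsaicin receptor Trpv1 rose from 118 and 116 CPM after sham surgery to 135 and 134 CPM after SNI, while the cold receptor Trpm8 fell from 13.3 and 13.6 CPM after sham surgery to 10.3 and 11.4 CPM after SNI. Chloride channels and transporters gave 5 rises and 8 falls among 24. Ano6, a lipid scramblase and channel, rose by 0.38 ± 0.03, and the chloride extruder Slc12a5 fell from 12.9 and 11.9 CPM after sham surgery to 8.17 and 8.21 CPM after SNI, its level in sham cord being 776 CPM. With the coefficient of 0.1 the calls of Slc12a5 and Cacng2 were kept and those of the others named here were lost, and Trpm8 lost its call with DESeq2 (adjusted p = 0.154) and without the first SNI pool (0.113).

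Receptors for GABA, glycine, glutamate and acetylcholine were lower more often than higher. Of 13 GABA-A and glycine receptor subunits 6 fell and 1 rose, with a median of -0.178. Gabra2 fell from 54.8 and 53.2 CPM after sham surgery to 38.4 and 34.5 CPM after SNI and the glycine receptor beta subunit Glrb from 190.0 and 187 CPM after sham surgery to 142 and 139 CPM after SNI, and Gabrg1 rose from 32.8 and 30.1 CPM after sham surgery to 39.4 and 41.4 CPM after SNI. Ionotropic glutamate receptor subunits gave 5 falls and 3 rises among 14. Gria2, the AMPA receptor subunit that blocks calcium entry, fell from 52.4 and 55.3 CPM after sham surgery to 35.7 and 33.8 CPM after SNI (-0.63 ± 0.04), and Gria4 fell by 0.37 ± 0.04. The kainate receptor gene Grik3 rose by 0.35 ± 0.05. Metabotropic glutamate and GABA-B receptors gave 4 falls and no rise among 6 (0 rises at an unadjusted p under 0.05 and 0 with DESeq2). The 4 falls became 1 with DESeq2 and 1 without the second sham pool, and 2 without either SNI pool. The GABA-B subunit Gabbr2 fell from 179.5 and 177 CPM after sham surgery to 151 and 156 CPM after SNI, while its partner Gabbr1, at 444 and 461 CPM (sham) against 439.9 and 439 CPM (SNI), was not called. Among 8 nicotinic receptor subunits 2 fell and none rose (1 at an unadjusted p under 0.05, and with DESeq2 0 rises and 0 falls), the larger fall being that of Chrna7 at -0.28 ± 0.07. Gabra2 and Gria2 kept the call with the coefficient of 0.1 and the other receptor genes named here lost it, Chrna7 also with DESeq2 (adjusted p = 0.115) and without the first sham pool (0.0502). Gabra2 and Gria2 are more abundant in cord (86.9 and 325 CPM in sham cord).

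Vesicle release genes fell in 19 of 42 cases and rose in 8. Snap25, the plasma membrane SNARE protein, fell from 2108 and 2149.6 CPM after sham surgery to 1459.7 and 1471 CPM after SNI (-0.54 ± 0.0057, adjusted p = 2.63e-39), a change that kept its call with DESeq2, with the coefficient of 0.1 and without each pool. Vamp1, the synaptobrevin of large sensory and motor neurons, fell by 0.34 ± 0.02, and the synaptotagmin gene Syt3 by 0.33 ± 0.05. Doc2b, a calcium sensor of spontaneous release, rose from 3.01 and 3.45 CPM after sham surgery to 4.67 and 4.79 CPM after SNI, a call not kept by DESeq2 (adjusted p = 0.16) or without the first sham pool (0.0956). The calls of Vamp1 and Syt3 were lost with the coefficient of 0.1.

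Peptide precursors changed in both directions, and the 4 changes beyond 1.5-fold were rises. Of 18 tested genes of that list, which also holds Nxph4, a neurexin ligand and not a peptide precursor, 5 rose and 4 fell. Nts, neurotensin, rose from 26.3 and 23.2 CPM after sham surgery to 117 and 116 CPM after SNI (4.70-fold), and Gal, galanin, from 28.9 and 30.1 CPM after sham surgery to 123 and 127 CPM after SNI (4.22-fold). The other large rises of the list were those of Ucn and Npy above. Among the falls was Calca. The 4 rises kept the call with the coefficient of 0.1.

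Growth factor systems moved in parts. In the TGF-beta, BMP and activin family 10 of 42 genes rose (23.8%) and 5 fell (11.9%), beside 15.9% and 17% of all genes. Its activin branch held the 2 largest changes, Fst and Acvr1c above, of which Acvr1c passed the minimum of reads through its SNI reads. The type I receptor gene Acvr1 rose from 23 and 23.2 CPM after sham surgery to 30.5 and 32.1 CPM after SNI. Inhba, the activin A chain that follistatin binds, was at 3.41 and 3.34 CPM (sham) against 2.42 and 3.68 CPM (SNI) and was not called. Bmp1, a protease that processes procollagen, rose from 23.9 and 22.6 CPM after sham surgery to 37.4 and 35.8 CPM after SNI (0.66 ± 0.05). Insulin-like growth factor genes rose in 9 of 16 cases and fell in 1, with a median of 0.185. Igfbp3, a binding protein, rose from 22.2 and 23.1 CPM after sham surgery to 36.8 and 35.9 CPM after SNI, and Pappa2 and Pappa, proteases that free the factor from its binding proteins, rose by 0.68 ± 0.12 and 0.43 ± 0.08. Igf1 itself rose by 0.25 ± 0.05, and the receptor Igf1r fell by 0.16 ± 0.03. Fst, Acvr1c, Bmp1, Igfbp3 and Pappa2 kept the call with the coefficient of 0.1, and Acvr1 and Pappa lost it.

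In the interleukin-6 family 8 of 14 genes rose and none fell (1 fall at an unadjusted p under 0.05, and with DESeq2 2 rises and 0 falls). The feedback inhibitor Socs3 was at 7.82 and 7.90 CPM in the sham pools and 9.66 and 10.1 CPM in the SNI pools, and Socs1 and Ctf1 were higher by 0.48 ± 0.15 and 0.52 ± 0.20. None of these 3 calls was kept by DESeq2 (adjusted p = 0.231, 0.218 and 0.418) or without the second sham pool (0.0644, 0.16 and 0.0873) or the second SNI pool (0.0696, 0.0572 and 0.0808), and without the first sham pool Socs3 (0.0932) and Ctf1 (0.242) lost theirs. Among 13 neurotrophin and GDNF family genes 5 rose (38.5%) and 2 fell (15.4%), beside 15.9% and 17% of all genes. The co-receptors Gfra1 and Gfra3, which bind GDNF and artemin, rose from 117 and 123 CPM after sham surgery to 169.6 and 169.9 CPM after SNI and from 62.5 and 61.7 CPM after sham surgery to 89.1 and 88.8 CPM after SNI, respectively. The neurotrophin receptor gene Ntrk3 fell by 0.17 ± 0.02, and its call, unlike those of the co-receptors, was lost with the coefficient of 0.1. Among 18 fibroblast growth factor genes 2 rose (11.1%) and 5 fell (27.8%). Fgf9 fell from 42.7 and 43.1 CPM after sham surgery to 32.6 and 29.8 CPM after SNI, and Fgf11, which acts inside the cell, rose by 0.51 ± 0.06, and both lost the call with that coefficient.

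Axon guidance genes were higher in the semaphorin and plexin list and mixed elsewhere. Of 30 semaphorins, plexins and neuropilins 15 rose and 3 fell (7 and 2 with DESeq2). Sema6a, a transmembrane semaphorin, rose from 35.1 and 38.3 CPM after sham surgery to 93 and 91.2 CPM after SNI (2.52-fold, adjusted p = 3.70e-25), and Sema4f rose by 0.37 ± 0.03, while Sema7a, which signals through integrins, fell by 0.35 ± 0.03. The SEMA6A receptors Plxna4 and Plxna2 had log2 fold changes of 0.17 ± 0.03 and -0.19 ± 0.03, both called. Draxin, a secreted netrin antagonist, rose from 3.41 and 3.56 CPM after sham surgery to 8.20 and 9.28 CPM after SNI. Netrin, slit and receptor genes gave 6 rises and 5 falls among 19 (4 and 2 with DESeq2), with Ntn1 higher by 0.37 ± 0.05 and its receptor Unc5b lower by 0.33 ± 0.08. Ephrins and their receptors gave 5 rises and 7 falls among 20, but 1 and 1 with DESeq2. The largest change was the fall of Efnb3, from 9.38 and 8.96 CPM after sham surgery to 5.61 and 6.48 CPM after SNI. Its level in sham cord was 268 CPM. Wnt, Notch and hedgehog genes gave 13 rises and 6 falls among 46 (5 and 3 with DESeq2), all under 1.5-fold, such as Gli1 at 0.42 ± 0.08. Sema6a and Draxin kept the call with the coefficient of 0.1, while Sema4f, Sema7a, Ntn1, Unc5b, Efnb3 and Gli1 lost it and Unc5b lost it with DESeq2 also.

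**Figure D3:**
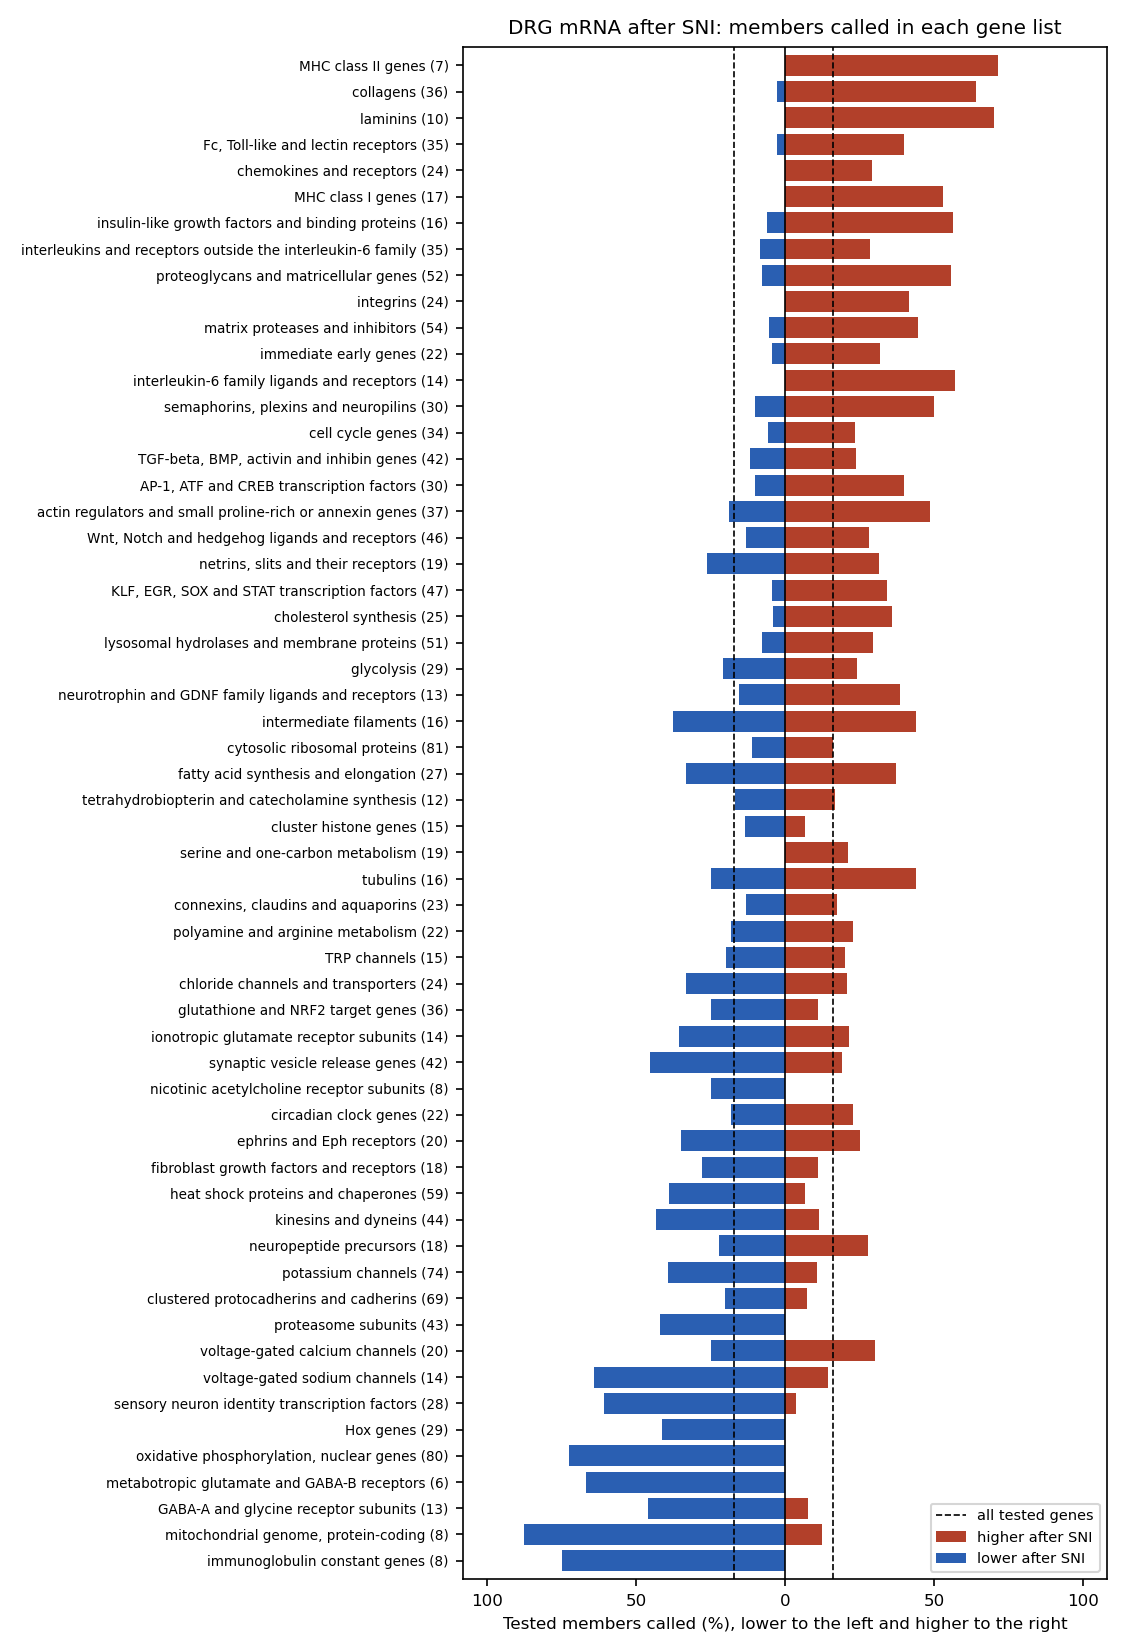
Percent of the tested members of each of 58 gene families called higher (right) or lower (left) after SNI, ordered by their median log2 fold change, with the number tested in brackets. Dashed lines mark the 15.9% and 17% of all tested genes, and MHC class II genes, collagens and laminins stand at the top while immunoglobulin constant, mitochondrial genome and GABA-A receptor genes stand at the bottom.

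The cytoskeleton changed by class. Of 16 tubulins 7 rose and 4 fell. Tubb6 rose from 10.3 and 8.85 CPM after sham surgery to 31.3 and 29.5 CPM after SNI (3.17-fold), Tubb2b, a growth-related isotype, by 0.37 ± 0.03, and Tuba4a fell by 0.26 ± 0.02. Tubulin paralogs are alike in sequence, so reads could be split between them. Intermediate filaments gave 7 rises and 6 falls among 16. Nefm, the medium neurofilament chain, fell from 3508 and 3480.2 CPM after sham surgery to 2423 and 2440.2 CPM after SNI (-0.52 ± 0.0031), and the keratin Krt19 rose from 1.55 and 1.17 CPM after sham surgery to 2.98 and 3.73 CPM after SNI. Gfap fell from 15.2 and 13.6 CPM after sham surgery to 7.65 and 7.01 CPM after SNI, in step with the other astrocyte markers. Kinesins and dyneins, the motors of axonal transport, gave 19 falls and 5 rises among 44. Kif3a, a kinesin motor subunit, fell from 199.9 and 195 CPM after sham surgery to 165 and 171 CPM after SNI, and Kif22, a chromosome-binding kinesin, rose from 6.02 and 6.57 CPM after sham surgery to 14.4 and 15.5 CPM after SNI. Among actin regulators, annexins and small proline-rich genes 18 of 37 rose and 7 fell. Anxa1 rose from 9.03 and 8.18 CPM after sham surgery to 17.6 and 17.8 CPM after SNI, and the smooth muscle calponin Cnn1 from 2.01 and 1.17 CPM after sham surgery to 2.91 and 3.68 CPM after SNI. Of the genes named here Kif3a, Tubb2b and Tuba4a lost the call with the coefficient of 0.1. Nefm shares 1108 exonic bases with Nefl on the other strand.

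Extracellular matrix genes rose together. Of 36 tested collagens 23 (63.9%) rose and 1 fell, with a median of 0.271. Fibrillar collagens gave 9 rises among 11, and their summed level went from 979 CPM in each sham pool to 1317 and 1287 CPM in the SNI pools. Col5a3 rose from 77 and 79.1 CPM after sham surgery to 189 and 184 CPM after SNI (2.39-fold, adjusted p = 2.02e-28) and Col5a2 from 40.1 and 43.4 CPM after sham surgery to 70.3 and 67.6 CPM after SNI (1.66-fold). Basement membrane collagens gave 4 rises among 7, with Col18a1 at 22.6 and 19.8 CPM (sham) against 31.7 and 32.3 CPM (SNI). The main collagens of connective tissue, Col1a1 and Col3a1, rose by 0.29 ± 0.02 and 0.48 ± 0.03 on the log2 scale, and were lost with the coefficient of 0.1, unlike Col5a3, Col5a2, Col18a1 and Col27a1 (0.58 ± 0.07).

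Basement membrane and adhesion genes followed. Of 10 tested laminins 7 rose and none fell, and of 24 integrins 10 rose and none fell (0 falls at an unadjusted p under 0.05 and 0 with DESeq2 in both lists). The rises numbered 3 laminins and 4 integrins with DESeq2, and 1 of each with the coefficient of 0.1. Lama5 rose from 8.18 and 9.41 CPM after sham surgery to 20.6 and 20.9 CPM after SNI (2.37-fold). Itga7, the integrin chain that binds laminin on Schwann cells and muscle, rose from 152 and 147 CPM after sham surgery to 236 and 240.0 CPM after SNI (1.59-fold). Lamc1 and Lamb2, chains shared by many laminins, rose by 0.26 ± 0.04 and 0.22 ± 0.03, while Lama3 was not called (-0.02). Proteoglycans and matricellular genes rose in 29 of 52 cases and fell in 4. The heparan sulfate proteoglycan Sdc1 rose from 23.5 and 22.9 CPM after sham surgery to 39.8 and 40.0 CPM after SNI, and Tnc, the injury matrix protein tenascin-C, by 0.61 ± 0.14. Matrix proteases and inhibitors rose in 24 of 54 cases and fell in 3, with the membrane-type metalloprotease Mmp16 at 10.3 and 9.74 CPM in the sham pools and 24.2 and 24.2 CPM in the SNI pools. Timp1, a protease inhibitor, rose by 0.60 ± 0.17 and lost its call with DESeq2 (adjusted p = 0.098), without the second sham pool (0.0946) and without the second SNI pool (0.083). With the coefficient of 0.1 the calls of Lama5, Itga7, Sdc1 and Mmp16 were kept, and those of Lamc1, Lamb2 and Tnc were lost. Markers of fibroblasts and meninges (7 of 14 higher, none lower, 1659 to 1677 CPM, then 1845 to 1853 CPM) and of smooth muscle and pericytes (8 of 10 higher, none lower, 368 to 371 CPM, then 402 to 414 CPM) moved with these families. Their part was not tested. In both marker lists 0 genes were lower at an unadjusted p under 0.05 and with DESeq2, and the genes higher numbered 3 in each with DESeq2. The fibroblast and meningeal list had 3 and 4 higher without the first and the second sham pool and 4 without the first SNI pool, and the smooth muscle and pericyte list had 5 without the first sham pool and 5 without the second SNI pool.

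**Figure D4:**
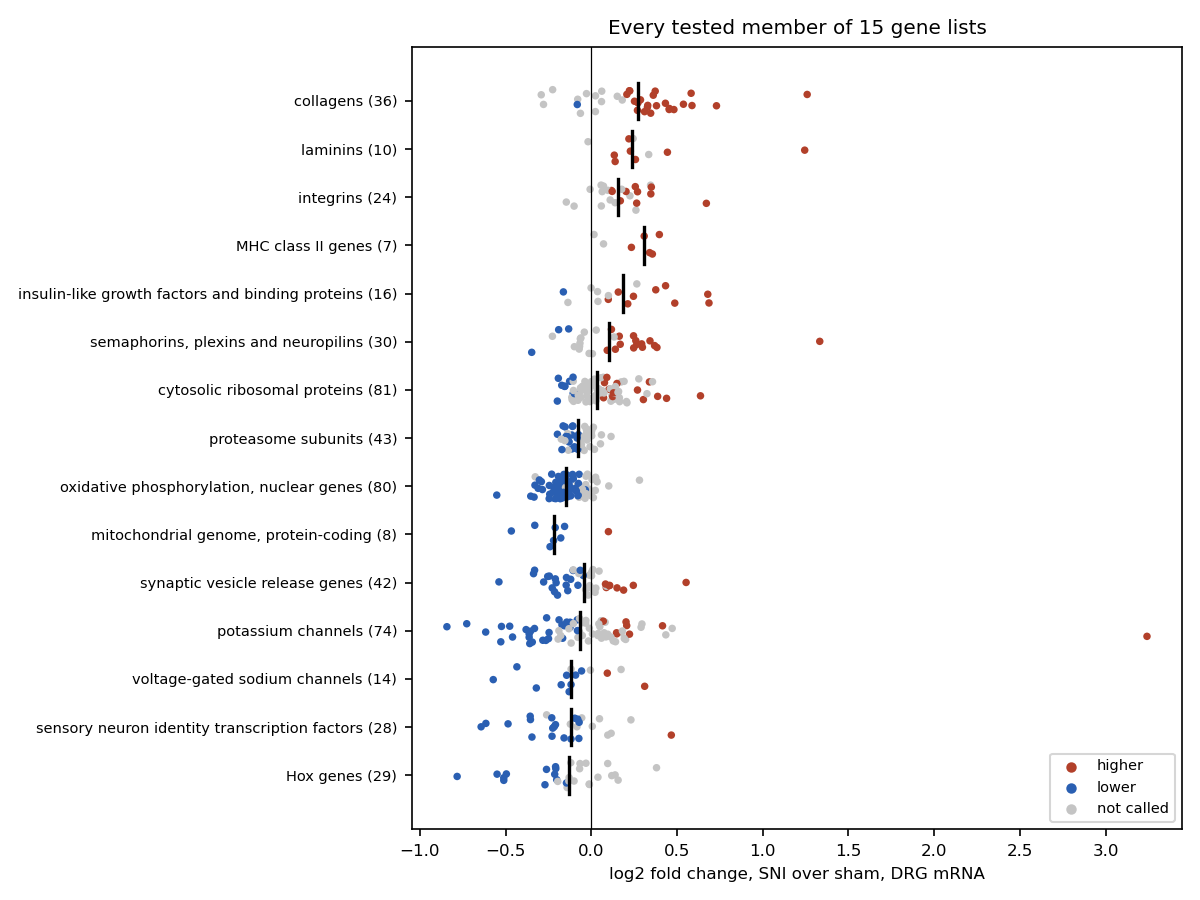
Log2 fold change of every tested member of 15 gene lists, with the number tested in brackets, red points for members called higher, blue for lower and grey for not called, and a black bar at the median. Nearly all nuclear oxidative phosphorylation genes lie a little below 0 (median -0.147), while collagens lie above it (median 0.271).

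More immune genes rose than fell in the macrophage, receptor and antigen presentation lists. Of 14 macrophage and microglia markers 9 rose (4 with DESeq2) and none fell (0 at an unadjusted p under 0.05 and 0 with DESeq2). The whole list, also under the minimum of reads, summed to 233 to 240 CPM after sham surgery and 311 to 316 CPM after SNI. Csf1r, the receptor that macrophages need, rose from 25.9 and 25.3 CPM after sham surgery to 38.8 and 39.2 CPM after SNI, and its ligand Csf1, which injured neurons make, rose from 17.6 and 17.3 CPM after sham surgery to 32.4 and 31.7 CPM after SNI (1.84-fold). C1qa of the complement system rose from 38.8 and 36.6 CPM after sham surgery to 55.2 and 55.1 CPM after SNI. Of 35 Fc, Toll-like and lectin receptors 14 rose and 1 fell (5 and 1 with DESeq2). The summed level of that whole list was 474 and 479 CPM in the sham pools and 477 and 473 CPM in the SNI pools. The largest rise was that of Trem2, a lipid receptor of macrophages, at 3.36 and 2.95 CPM in the sham pools and 6.16 and 6.92 CPM in the SNI pools. MHC class II genes, which present antigen to T cells, rose in 5 of 7 cases. Cd74, the invariant chain, rose from 199 and 199 CPM after sham surgery to 263 and 259 CPM after SNI, and H2-Eb1, H2-Aa and H2-Ab1 rose by 0.36 ± 0.03, 0.34 ± 0.03 and 0.31 ± 0.03, while the regulator Ciita was not called (0.07). The MHC class I list gave 9 rises among 17. It also holds genes that are not class I genes, such as the immunoproteasome subunit gene Psmb8, which rose by 0.29 ± 0.06. With DESeq2 4 genes of the class I list and 4 of the class II list were higher. The rises of these 2 lists were under 1.5-fold, and no gene of the lists fell (0 at an unadjusted p under 0.05 and 0 with DESeq2). All calls of the 2 lists were lost with the coefficient of 0.1, while those of Csf1, Csf1r, C1qa and Trem2 were kept. MHC paralogs can share reads.

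Chemokines were sparse. Only 24 of 68 listed genes passed the minimum, and 7 rose (2 with DESeq2) and none fell (0 at an unadjusted p under 0.05 and 0 with DESeq2). Ccl8, a ligand that draws monocytes, rose from 1.76 and 1.45 CPM after sham surgery to 3.25 and 3.06 CPM after SNI, and its call, alone of the 7, was kept with the coefficient of 0.1. Outside the interleukin-6 family 10 of 35 interleukin genes rose and 3 fell, with the receptor chain Il13ra1 at 11.2 and 10.3 CPM in the sham pools and 18.3 and 17.2 CPM in the SNI pools and Il7, a lymphocyte survival factor, lower at 10.1 and 8.35 CPM in the sham pools and 5.92 and 5.46 CPM in the SNI pools. The list of immunoglobulin constant genes went down, with 6 falls (3 with DESeq2) and no rise among 8 (0 rises at an unadjusted p under 0.05 and 0 with DESeq2). It also holds Jchain, which is not a constant gene. Of the 7 tested genes typed as constant genes 5 fell. Ighg3 was at 3.31 and 4.17 CPM in the sham pools and 0.658 and 0.710 CPM in the SNI pools and the light chain Igkc at 37.2 and 35.2 CPM in the sham pools and 22.8 and 23.1 CPM in the SNI pools, whereas Igha (8.48 and 8.91 CPM (sham) against 9.76 and 7.77 CPM (SNI)) was not called. These sequences are alike in part and their assignment is uncertain. Lysosomal genes rose in 15 of 51 cases and fell in 4. Ctss, a protease of macrophages, rose from 22.2 and 22.3 CPM after sham surgery to 37.6 and 37.5 CPM after SNI (1.69-fold), and the membrane protein gene Cd63 by 0.41 ± 0.04. Ccl8, Il13ra1, Il7, Ighg3, Igkc and Ctss kept the call with the coefficient of 0.1, and Cd63 lost it.

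Genes of mitochondrial energy supply fell in most cases, each by a small amount. Of 80 tested nuclear genes of oxidative phosphorylation 58 (72.5%) fell and none rose (0 at an unadjusted p under 0.05 and 0 with DESeq2), with a median log2 fold change of -0.147. Complex I gave 30 falls among 37, complex III 7 among 9, complex IV 8 among 14 and the ATP synthase 10 among 15. The summed level of the complex I genes went from 4878 and 4883 CPM to 4387 and 4413 CPM. Cycs, the electron carrier cytochrome c, fell from 19.7 and 18.6 CPM after sham surgery to 13.2 and 13 CPM after SNI (-0.55 ± 0.08), and the complex I genes Ndufa12 and Ndufs5 by 0.35 ± 0.04 and 0.33 ± 0.06. With DESeq2 42 of the 80 were lower and with library sizes alone 48, but with the coefficient of 0.1 only Cycs was. The 8 protein-coding genes of the mitochondrial genome that passed the minimum gave 7 falls and 1 rise. The complex I gene mt-Nd4 fell from 3082 and 3172 CPM after sham surgery to 2243 and 2285 CPM after SNI and mt-Cytb of complex III from 4078 and 4152 CPM after sham surgery to 3472 and 3495 CPM after SNI, while mt-Co1 of complex IV rose from 1411 and 1429.8 CPM after sham surgery to 1526 and 1518 CPM after SNI. All mitochondrial reads made up 1.69% and 1.71% of the sham and 1.46% and 1.47% of the SNI libraries. The mitochondrial calls too were lost with the coefficient of 0.1.

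Genes of protein quality control were lower in part. Of 43 proteasome subunits 18 fell (9 with DESeq2) and none rose (1 at an unadjusted p under 0.05, 0 with DESeq2), the largest fall being that of Psma4 at -0.20 ± 0.04. Of 59 heat shock and chaperone genes 23 fell and 4 rose. Hsp90aa1, an inducible cytosolic chaperone, fell from 196 and 193 CPM after sham surgery to 162 and 159 CPM after SNI, and Hspa1b by 0.34 ± 0.09, while the 7 tested subunits of the chaperonin CCT had a median of -0.03. Ribosomal protein genes stayed near the background, with 13 rises and 9 falls among 81. None of these chaperone, proteasome and ribosomal calls was kept with the coefficient of 0.1.

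Lipid and intermediary metabolism split by pathway. Cholesterol synthesis rose in 9 of 25 cases and fell in 1, led by Hsd17b7, from 63.8 and 63.5 CPM after sham surgery to 90.0 and 90.6 CPM after SNI (0.50 ± 0.03), while Hmgcs1, an early enzyme of the pathway, fell by 0.18 ± 0.01. Fatty acid genes gave 10 rises and 9 falls among 27. Thrsp, a lipogenic regulator, fell from 29.5 and 30.2 CPM after sham surgery to 18.6 and 19.1 CPM after SNI, and the desaturases Fads2 and Fads3 rose by 0.37 ± 0.04 and 0.39 ± 0.04. Glycolysis gave 7 rises and 6 falls among 29 (24.1% and 20.7%, beside 15.9% and 17% of all genes). Pgam2 and Eno3, the muscle isoforms, rose from 0.502 and 1.17 CPM after sham surgery to 2.08 and 2.17 CPM after SNI and from 9.23 and 10.5 CPM after sham surgery to 14.1 and 13.5 CPM after SNI, respectively, and moved with the muscle markers, while Ldhb fell by 0.35 ± 0.03. Serine, glycine and folate genes gave 4 rises (3 with DESeq2) and no fall among 19 (0 falls at an unadjusted p under 0.05 and 0 with DESeq2), with Psat1 higher by 0.25 ± 0.04. These rises were 21.1% of the list, beside 15.9% of all genes. Of the glutathione and NRF2 target genes 4 rose and 9 fell among 36. Srxn1, sulfiredoxin, rose from 297 and 302 CPM after sham surgery to 392 and 391 CPM after SNI, and Gclm, part of the enzyme that makes glutathione's precursor, fell by 0.27 ± 0.03. In tetrahydrobiopterin synthesis, a pathway known from pain studies, the entry enzyme Gch1 rose from 5.52 and 6.35 CPM after sham surgery to 7.86 and 8.03 CPM after SNI, a call not kept by DESeq2 (adjusted p = 0.154) or without the first sham pool (0.134). Spr, the last enzyme, was at -0.09 ± 0.03 and lost its call with DESeq2 (0.345), without the first sham pool (0.284), without the second SNI pool (0.437) and with library sizes alone (0.209). Qdpr (-0.01) and Pts (0.04) were not called. Hsd17b7, Thrsp and Pgam2 kept the call with the coefficient of 0.1, and the other metabolic genes named here lost it.

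Transcription factors divided between response and identity genes. Of 30 AP-1, ATF and CREB genes 12 rose and 3 fell (6 and 2 with DESeq2). Atf3 rose from 13 and 14.5 CPM after sham surgery to 103 and 99.5 CPM after SNI (7.38-fold), Cebpd from 18.4 and 18.7 CPM after sham surgery to 28.5 and 29.1 CPM after SNI and Fosl2 from 20.9 and 22.3 CPM after sham surgery to 33 and 33.3 CPM after SNI. Of 47 KLF, EGR, SOX and STAT genes 16 rose and 2 fell (6 and 1 with DESeq2). Sox11 was at 38.5 and 41.5 CPM in the sham pools and 89.1 and 91.9 CPM in the SNI pools. Sox7, a vascular factor, was at 0.903 and 0.668 CPM in the sham pools and 1.90 and 2.31 CPM in the SNI pools. Sensory identity factors, in contrast, fell in 17 of 28 cases (60.7%) and rose in 1. With DESeq2 9 fell and 1 rose, with library sizes alone 11 fell and 3 rose, and with the coefficient of 0.1 only 1 fell. Etv1 and Runx3, both needed by proprioceptors, fell from 140.0 and 140.0 CPM after sham surgery to 90.4 and 88.8 CPM after SNI and from 15.8 and 16.8 CPM after sham surgery to 12.5 and 10.5 CPM after SNI, respectively. Isl1, a factor of all sensory neurons, fell by 0.23 ± 0.03. Runx2, known from bone, was the gene that rose, from 8.18 and 9.24 CPM after sham surgery to 11.7 and 12.4 CPM after SNI. Hox genes fell in 12 of 29 cases (6 with DESeq2) and rose in none (0 at an unadjusted p under 0.05 and 0 with DESeq2), and 5 of the 8 Hoxb genes were among them. Hoxb8, Hoxc8, Hoxb9 and Hoxb6 fell by 0.78 ± 0.05, 0.55 ± 0.10, 0.51 ± 0.07 and 0.51 ± 0.08, and their levels in sham cord (505, 72.3, 176 and 91.4 CPM) were above those in the ganglia. The falls of the Hox genes moved with those of the cord markers. Hoxb8, Etv1, Atf3, Cebpd, Fosl2, Sox7 and Sox11 kept the call with the coefficient of 0.1, and the other factors named here lost it.

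Cell cycle genes rose in 8 of 34 cases (23.5%, against 15.9% of all genes) and fell in 2 (5.9%, against 17%). With DESeq2 3 rose and 1 fell. The cyclin-dependent kinase inhibitors Cdkn1a and Cdkn2a, which halt the cycle, rose from 65.3 and 68.9 CPM after sham surgery to 107 and 105 CPM after SNI and from 5.47 and 5.90 CPM after sham surgery to 9.28 and 9.90 CPM after SNI, respectively, and Prc1, a protein of dividing cells, from 3.56 and 3.40 CPM after sham surgery to 6.44 and 7.19 CPM after SNI. Of 22 immediate early genes 7 rose and 1 fell, with Fos at 4.36 and 4.95 CPM in the sham pools and 6.89 and 7.41 CPM in the SNI pools. Clock genes gave 5 rises and 4 falls among 22 (22.7% and 18.2%, near the 15.9% and 17% of all genes). Per1 was higher by 0.51 ± 0.05 and Nr1d2 lower by 0.39 ± 0.05. Adhesion molecules of the cadherin superfamily fell in 14 of 69 cases (20.3%, near the 17% of all genes) and rose in 5 (7.2%, against 15.9%). Cdh12 and Cdh7 fell from 11.6 and 12 CPM after sham surgery to 6.06 and 6.92 CPM after SNI and from 4.36 and 4.34 CPM after sham surgery to 2.56 and 2.49 CPM after SNI, respectively, whereas of 40 tested clustered protocadherins, which share exons, 1 rose and 1 fell. Among connexins, claudins and aquaporins 4 rose and 3 fell of 23 (17.4% and 13%, near the 15.9% and 17% of all genes). The water channel Aqp4 of astrocytes fell by 0.55 ± 0.09 and the water channel Aqp1 rose by 0.18 ± 0.02. Cdkn1a, Cdkn2a, Prc1, Per1, Cdh12 and Cdh7 kept the call with the coefficient of 0.1, and Fos, Nr1d2, Aqp4 and Aqp1 lost it.

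Since ATF3, the JUN and FOS factors and CREB bind known short motifs, the promoters of the strongest rises were read for them. RefSeq promoters on GRCm38.p6, from 250 bases before to 50 after the start, were matched by symbol for 52 of the 81 genes higher beyond 1.5-fold. The AP-1 motif TGANTCA and the CRE motif TGACGTCA read the same on both strands, and no TGACGTCA holds a TGANTCA. Of all 27025 genes with a RefSeq promoter, 8.97% had AP-1 and 2.03% had CRE in at least 1 promoter. At least 1 AP-1 match was present in 7.69% of the 52, in 8.41% of the 1725 matched genes called higher, in 5.22% of the 1860 called lower and in 6.19% of the 10769 matched genes tested. For CRE these shares were 3.85%, 2.72%, 4.03% and 3.56%. Of the 24 genes lower beyond 1.5-fold 17 were matched, and AP-1 was present in 3 of them (17.6%), a larger share than in the strong rises, and CRE in 0. A match is a description of letters and not a site. The promoters of 4 genes with large rises are shown because they hold a match, in capitals, on the strand of the gene. Those of Anxa10 (chr8:62123144-62123443), Sprr1a (chr3:92485832-92486131) and Nts (chr10:102490369-102490668) hold AP-1 matches, at -180 and -16, at -146 and -116, and at -207 bases from the start, and that of Ucn (chr5:31138846-31139145) holds a CRE match at -44. All 4 genes lie on the minus strand.
Anxa10: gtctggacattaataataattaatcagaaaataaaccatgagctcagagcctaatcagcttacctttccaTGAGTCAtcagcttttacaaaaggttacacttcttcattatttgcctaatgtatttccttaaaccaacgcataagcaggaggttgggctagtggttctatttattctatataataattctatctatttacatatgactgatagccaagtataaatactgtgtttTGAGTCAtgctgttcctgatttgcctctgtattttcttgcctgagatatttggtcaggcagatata
Sprr1a: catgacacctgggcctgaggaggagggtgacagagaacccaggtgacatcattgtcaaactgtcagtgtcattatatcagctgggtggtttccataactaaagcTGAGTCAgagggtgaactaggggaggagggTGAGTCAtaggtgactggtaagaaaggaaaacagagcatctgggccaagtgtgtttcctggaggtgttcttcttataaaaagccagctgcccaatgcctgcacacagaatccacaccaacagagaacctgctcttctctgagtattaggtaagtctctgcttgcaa
Nts: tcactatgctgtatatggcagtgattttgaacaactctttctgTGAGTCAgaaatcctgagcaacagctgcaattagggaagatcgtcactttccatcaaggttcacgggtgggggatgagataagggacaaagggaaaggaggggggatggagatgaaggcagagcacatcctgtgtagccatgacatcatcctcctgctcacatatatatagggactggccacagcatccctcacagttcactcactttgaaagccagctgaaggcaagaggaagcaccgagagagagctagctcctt
Ucn: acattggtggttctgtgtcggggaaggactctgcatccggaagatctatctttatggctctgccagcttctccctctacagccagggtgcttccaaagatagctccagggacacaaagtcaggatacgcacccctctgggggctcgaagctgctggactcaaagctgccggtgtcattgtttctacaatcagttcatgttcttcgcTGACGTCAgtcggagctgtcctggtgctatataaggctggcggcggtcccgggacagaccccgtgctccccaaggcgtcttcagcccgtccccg

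Noncoding genes of the table changed in part by large factors. Of 10 tested genes typed as microRNA, a class in which the table also puts the snoRNA gene Snord43, 5 were higher and 1 lower. Reads over the hairpin gene Mir182 numbered 22 and 18 in the sham pools and 209 and 157 in the SNI pools, and those over Mirlet7c-1 numbered 36 and 28, then 255 and 246. Their log2 fold changes were 2.75 ± 0.19 and 2.53 ± 0.17. Mir182 passed the minimum of reads through its SNI reads. A low sham level and a large fold therefore go together in it by construction. Neighbours in the same clusters had few reads. Mir183 had 8, 2, 12 and 8 reads and Mir96 1, 2, 6 and 4 in the 4 libraries, and Mir99a 2, 3, 5 and 2, while the let-7c host transcript Mir99ahg had 156, 124, 219 and 178. The hairpins lie at chr6:30165918-30165992 on the minus strand (Mir182) and chr16:77599657-77599750 on the plus strand (Mirlet7c-1), in RefSeq on GRCm38.p6. The reads do not tell an arm, and the libraries were cut to fragments longer than a mature microRNA, so the mature sequences are shown only to identify the genes, with the seed (bases 2 to 8) in capitals. In the footprint libraries of the same lysates the values were 0.21 (adjusted p = 0.0257) and -0.37 (adjusted p = 1.13e-08), the first smaller than in mRNA and the second of the opposite sign. The difference between the 2 kinds of library was not tested. The seeds of the 2 differ.
mmu-miR-182-5p: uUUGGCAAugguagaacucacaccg
mmu-let-7c-5p: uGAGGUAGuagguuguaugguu

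Other noncoding changes included the lincRNA Gm29374 at 0.301 and 0.278 CPM in the sham pools and 2.70 and 2.17 CPM in the SNI pools, the snRNA gene Gm23924 at 3.71 and 4.56 CPM in the sham pools and 19 and 18.9 CPM in the SNI pools and the pseudogene Gm34583 at 1.15 and 1.67 CPM in the sham pools and 4.47 and 4.30 CPM in the SNI pools. Gm29374 and Gm34583 passed the minimum of reads through their SNI reads. Among noncoding genes with at least 1 CPM, 3 fell beyond 1.5-fold. The mitochondrial tRNA gene mt-Tp was at 350.4 and 337 CPM in the sham pools and 208 and 209 CPM in the SNI pools and AC161763.1, a lincRNA, at 1124 and 1176 CPM in the sham pools and 715 and 724 CPM in the SNI pools. Gm13629 was at 3.31 and 3.23 CPM in the sham pools and 1.42 and 1.2 CPM in the SNI pools and shares 180 exonic bases with the sodium channel gene Scn9a on the other strand, from which the unstranded reads cannot be told apart.

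Footprints of the same pools gave a second readout of these genes, though not of other animals. Of 13038 genes tested, 1095 (8.4%) were higher and 1080 (8.28%) were lower. These counts came to 597 to 959 and 567 to 895 when a pool was left out, falling by over 1.5 times without the second sham pool (599 higher), the first SNI pool (700 lower) and the second SNI pool (597 higher and 567 lower). Of the 27 largest mRNA changes 19 had enough footprints. Slc6a4, Fst and Calb2 had footprint log2 fold changes of 2.96, 2.23 and -2.0, beside 2.78, 1.86 and -1.83 in mRNA. All of these were called in both. Lpl and Cacng2 were called lower in mRNA only, with footprint values of 0.13 (adjusted p = 0.394) and -0.23 (adjusted p = 0.259). By family, footprints of 19 of 32 collagens, 6 of 10 laminins, 6 of 23 integrins and 17 of 19 muscle markers were higher. Nuclear oxidative phosphorylation genes gave 24 falls among 76 with a median of -0.07, and proteasome genes 2 falls among 43. For the 8 genes of the mitochondrial genome, which are translated inside the organelle, the median was 0.017, and mt-Nd4 stood at -0.04 (adjusted p = 0.746). Sensory identity factors gave 8 falls among 27.

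**Figure D5:**
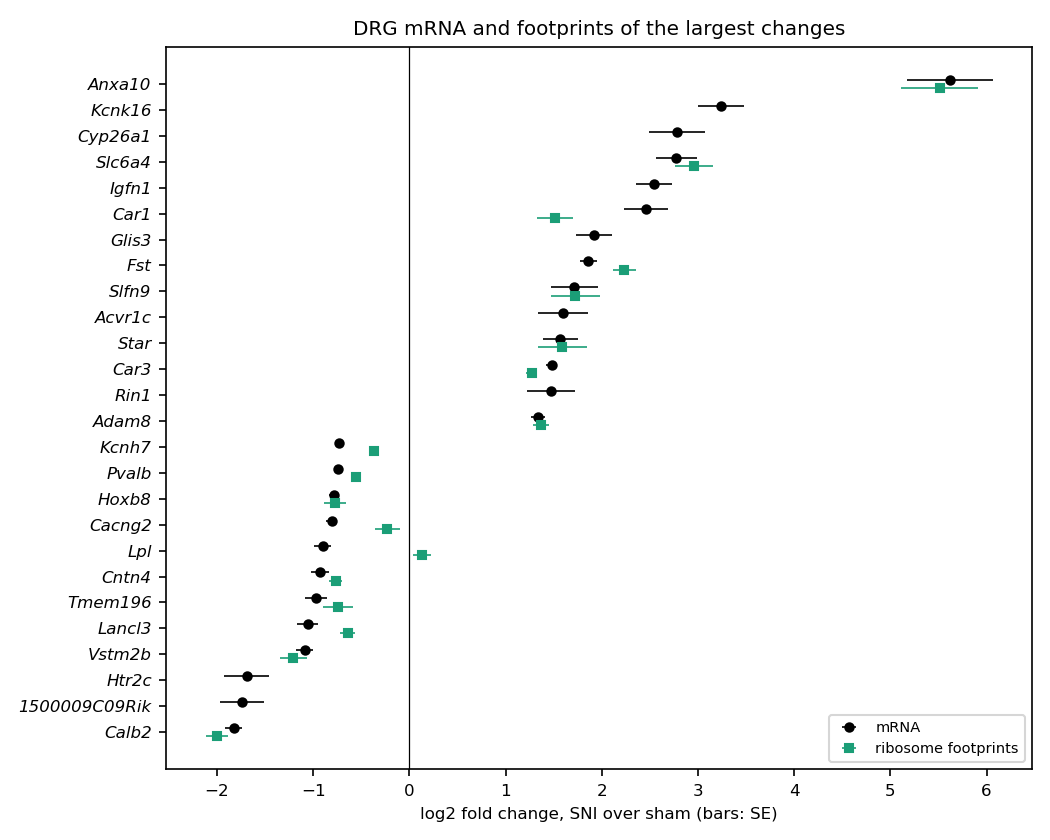
Log2 fold change (SNI over sham) of 26 of the 27 largest mRNA changes in mRNA (black circles) and in ribosome footprints (green squares), with bars for the SE, and no square where a gene had too few footprints. The squares lie on the side of the circles in 17 of 18 genes, and Lpl, at 0.13 in footprints, is the exception.

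Against the spinal cord, tested as an interaction of surgery and tissue, 2347 of 13557 genes (17.3%) differed in their mRNA response, 1139 with the larger value in the ganglion and 1208 with the smaller. Of the 80 nuclear oxidative phosphorylation genes 51 differed, all of them with the lower value in the ganglion. Of 33 collagens 18 differed, 17 of them upward in the ganglion, and of 14 muscle markers 12 did, all upward. The 12 proteasome genes that differed, of 43, were all lower in the ganglion. Of 30 semaphorin, plexin and neuropilin genes 11 differed, 10 of them upward in the ganglion. For the macrophage markers, 2 of 14 differed, with a median log2 fold change of 0.358 in the ganglion and 0.317 in the cord.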

How the data were processed

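The 4 DRG mRNA columns of the deposited table of raw read counts per gene were used (53465 genes, GRCm38.p5). The authors isolated poly(A)+ RNA from parts of the lysates that also gave the footprint libraries, fragmented it by alkaline hydrolysis, selected short fragments, sequenced them on a HiSeq sequencer, removed rRNA and tRNA reads with Bowtie 1.1.2, and mapped and counted reads per gene, for which the submitters' processing notes name STAR 2.5.2b and HTSeq. The libraries were described as not strand-specific, and the counting settings were not given in the sources used here. The deposited RPKM and translational efficiency columns were not used.

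Genes with a mean of at least 32 reads over the 4 libraries were tested with edgeR 4.0.16 (quasi-likelihood, two-sided, TMM, R 4.3.3) and Benjamini-Hochberg adjustment, called at 0.05, and with glmTreat against 1.5-fold. Errors after ± are SE of the log2 fold change, taken from the F statistic. Footprints and the interaction with spinal cord were fitted separately. The smallest p of an exact permutation test of 2 against 2 pools cannot pass 0.05, so none was run. Scripts were tested on simulated data.

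Members and gene lists were chosen with earlier results of these data known. Named genes were the largest protein-coding changes beyond 1.5-fold with at least 1 CPM, no overlap of pools and no place on the injury or foreign tissue lists (up to 15 per direction), up to 4 largest called members per list and their partners, all members of lists with 12 or fewer tested, leading markers, and up to 5 noncoding changes per direction. Alternatives were DESeq2 1.42.0, library sizes alone, DESeq2 size factors, other filters, a fixed coefficient of variation, both tissues in 1 fit, a replicate block and leaving out each pool. Depth was 18176471 to 28553113 reads per library, and intervals on reads cover counting error only. Some named genes are not reported here. Whether the pools were operated or processed together was not given in the sources used here.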

Additional observations from a re-analysis of the deposited data

Results flagged for a closer look

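The response to surgery differed between ganglion and spinal cord for 2347 of 13557 genes (edgeR interaction of surgery and tissue, adjusted p under 0.05) or 17.3%. The genes below were named for the size of their ganglion change, which this test also uses. That all 17 that could be tested, of the 27 largest changes, differed is therefore no separate support for a difference. As ganglion minus cord difference of the log2 fold changes, the rises gave 1.91 for Glis3, 1.80 for Car3, 1.69 for Acvr1c, 1.56 for Star and 0.85 for Adam8. The falls gave -1.87 for Calb2, -1.77 for 1500009C09Rik, -1.61 for Htr2c, -1.09 for Vstm2b, -0.92 for Lpl, -0.86 for Cntn4, -0.85 for Tmem196, -0.82 for Pvalb, -0.81 for Cacng2, -0.78 for Hoxb8, -0.72 for Lancl3 and -0.62 for Kcnh7. The remaining 10 had too few reads in the cord. Groups of 2 pools are too small for a search for outlying samples.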

How the results depend on the processing

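With DESeq2 the calls came to 928 higher and 1176 lower (main 2308 and 2467), 272 and 254 over all lists together (main 475 and 415), 349 and 376 in footprints (main 1095 and 1080) and 932 for the interaction (main 2347). With the coefficient of variation fixed at 0.1 they were 186 and 81, and 87 and 28 over all lists. Leaving out 1 pool gave 1654 to 1958 higher and 1833 to 2142 lower, 62 to 69 and 11 to 18 beyond 1.5-fold, 375 to 427 and 320 to 371 over all lists, 597 to 959 and 567 to 895 in footprints, and 1630 to 2288 for the interaction. The lone pool was then taken to vary like the other group. The share of calls that were higher was 48.3% in the main fit, 63.3% with library sizes alone, 54.7% with no filter on low counts (2375 and 1968) and 69.7% with the fixed coefficient. The medians of the TRP, chloride, ionotropic glutamate, glutathione and Schwann cell lists changed sign with library sizes alone. Of 4549 values of named genes under the alternatives, 4031 kept their direction and side of the threshold, 510 lost the call, 8 gained it and 0 reversed.

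Pools of the 2 groups share replicate numbers, but their deviations correlated by 0.0431 only, so the numbers were not taken to pair the samples. A replicate block gave 2407 higher and 2552 lower, 85 and 25 beyond 1.5-fold, 486 and 423 over all lists, 1250 and 1282 in footprints, and 2378 for the interaction. For genes near the minimum of reads counting error limits what can be detected.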

Other observations

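Endothelial markers were higher in 5 of 11 cases (0 with DESeq2 and 0 with the coefficient of 0.1), and adipocyte markers gave no call among 7 (2 higher at an unadjusted p under 0.05, 0 with DESeq2). Schwann cell markers gave 6 rises and 6 falls among 18, and satellite glia markers 3 rises and 4 falls among 10. In the blood cell lists 4 of 7 erythroid (57.1%), 3 of 7 lymphocyte (42.9%) and 2 of 10 neutrophil and marrow genes (20%) were lower. Of all genes 15.9% were higher and 17% lower. With DESeq2 these falls numbered 4, 1 and 0. In footprints 0 of 7 erythroid genes were called and 2 of 4 lymphocyte genes were lower. Of 10 neutrophil and marrow genes 3 were higher in footprints and 0 lower. Bone and cartilage markers gave 2 rises and 2 falls among 6. Of 37 tested snRNA genes 5 were higher and 15 lower, and of 12 mitochondrial tRNA genes 8 were lower. Mir451a, a hairpin known from red blood cells, had 25 and 22 reads in the sham pools and 62 and 61 in the SNI pools. It passed the minimum of reads through its SNI reads.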
